A study of Homo sapiens with 6 samples.

Results

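Interferon-stimulated genes are the genes that cells switch on when an interferon receptor is engaged, and many of their products block viruses. The 43 genes described here were listed by name, and each matched 1 row of a deposited table of 60623 genes. LX2 is an established human hepatic stellate cell line, labelled as a non-parenchymal liver cell and grown in medium with 2% serum. The cells received either a control siRNA (siNC, 3 libraries, genotype labelled WT) or an siRNA against SHMT2 (siSHMT2, 3 libraries, genotype labelled SHMT2 knockdown), and RNA was collected 36 h later. Libraries are numbered by the replicate in their labels, as siNC_1 or siSHMT2_3. Transfection with an siRNA is common to both groups, and untransfected cells were not analysed here. SHMT2 encodes the mitochondrial serine hydroxymethyltransferase.

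Type I interferons bind the receptor chains IFNAR1 and IFNAR2, and the kinases JAK1 and TYK2 then phosphorylate STAT proteins. A complex that includes STAT2 and IRF9 binds the interferon-stimulated response element (ISRE), and the response to interferon-gamma works through the gamma-activated site (GAS). Double-stranded RNA, small RNAs given by transfection included, can start the same response through RNA sensors. Such genes also have a basal level in cells that receive no interferon, and interferon signalling in stellate cells is known to oppose their fibrogenic activity.

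The promoters of several members are shown for the ISRE or GAS core that they hold. The search covered 250 bases before to 50 bases after each RefSeq gene start (GRCh38.p14) for the ISRE core GAAANNGAAA and the GAS core TTCNNNGAA, on both strands; matches of the 2 cores can overlap. Of the 43 members, 35 had an entry, and 24 of these (68.6%) held an ISRE core in at least 1 entry, against 4.38% of all 27305 genes with an entry. A GAS core was held by 10 of the 35 (28.6%), against 9.38% of all genes. Each line below gives 60 bases, 5′ to 3′ on the gene's strand, with ISRE cores in capitals, or the GAS core for IRF1.
ISG15 (chr1:1013372-1013431, plus strand): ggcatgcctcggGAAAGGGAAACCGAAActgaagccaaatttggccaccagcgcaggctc
IFIT1 (chr10:89392495-89392554, plus strand): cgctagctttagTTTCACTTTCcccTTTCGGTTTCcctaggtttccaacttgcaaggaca
IFITM1 (chr11:313988-314047, plus strand): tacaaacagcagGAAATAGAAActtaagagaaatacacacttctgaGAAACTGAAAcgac
IFITM3 (chr11:320865-320924, minus strand): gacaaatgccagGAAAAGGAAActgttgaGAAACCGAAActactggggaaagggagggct
PARP12 (chr7:140062914-140062973, minus strand): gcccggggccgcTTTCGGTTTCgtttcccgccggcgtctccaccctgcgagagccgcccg
PARP9 (chr3:122564294-122564353, minus strand): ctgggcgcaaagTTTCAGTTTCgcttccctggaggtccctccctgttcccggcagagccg
DTX3L (chr3:122564320-122564379, plus strand): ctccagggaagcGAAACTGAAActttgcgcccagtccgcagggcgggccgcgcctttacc
SAMD9 (chr7:93118068-93118127, minus strand): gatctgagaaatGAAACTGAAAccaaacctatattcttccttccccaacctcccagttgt
IRF1 (chr5:132490850-132490909, minus strand): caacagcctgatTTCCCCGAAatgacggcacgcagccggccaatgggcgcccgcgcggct

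ISG15, IFIT1, IFITM1 and IFITM3 each showed a pair of ISRE cores. PARP9 and DTX3L lie head to head, and their windows read the same ISRE core from opposite strands. Among the 31 tested members with an entry, the 23 with an ISRE core had a median log2 fold change of -0.66. Of these 23, 11 were called lower in the test described below. The 8 without a core in this window had a median of -0.50, and 4 were called lower. Over all tested genes the median was 0.02, and 9.85% were called lower. The core matches describe the sequence only.

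Values are FPKM (fragments scaled to gene length and to a total per library), computed by the authors. Each library held between 14722344 and 15669139 reads recovered from the FPKM, and tested members had from 19 to 21848 reads in a library. The total behind the FPKM differed from this read sum. It was 1.12, 0.957 and 1.02 times the recovered reads in siNC_1, siNC_2 and siNC_3. In siSHMT2_1, siSHMT2_2 and siSHMT2_3 it was 1.08, 1.13 and 1.05 times. SHMT2, the target, had a mean of 47.4 ± 8.02 FPKM in siNC and 2.26 ± 0.162 in siSHMT2 (SD, n = 3), which is 4.77% of the control. As a check of the cell label, 8 of 10 stellate and fibroblast markers passed the filter. ACTA2 and DES did not. The 10 summed to 1869–2729 FPKM in siNC libraries, 1444–1655 in siSHMT2 libraries, and VIM, a mesenchymal intermediate filament, fell by 0.71 on the log2 scale (limma adjusted p = 0.0191). VIM, singled out after its values were seen, was not called on leaving out siNC_3 (0.0509), siSHMT2_1 (0.0775), siSHMT2_2 (0.0949) or siSHMT2_3 (0.0878). Hepatocyte (7 genes), endothelial (5) and plasmacytoid dendritic cell (5) markers all lay below the filter, with sums of at most 1.36, 0.784 and 1.31 FPKM in any library. Of 8 macrophage and leukocyte markers only CD14 passed, its list summed to 14.6–19.5 FPKM in siNC libraries, 13.6–15.4 in siSHMT2 libraries, and CD3E, LYZ and ITGAM were at 0 throughout. The part of these markers in the results was not tested. In bulk RNA, fewer cells of a type and less RNA per cell cannot be told apart.

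Interferon-stimulated genes were mostly lower in cells given siSHMT2. A mean of at least 1 FPKM over the 6 libraries was required for testing, and 39 of the 43 members reached it; IFI27 did so only through its siNC level. By limma on log2(FPKM + 1), with Benjamini-Hochberg adjustment over all 10865 genes tested and a threshold of 0.05, 19 of the 39 fell (48.7%), whereas 9.85% of all tested genes were called lower. None of the 39 was called higher, against 6.07% of all tested genes; at an unadjusted p under 0.05 there were also 0 higher and 29 lower (16.01% of all tested genes were lower at that threshold), and limma voom on recovered reads gave 0 higher and 22 lower (7.85% of all tested genes). The median log2 fold change was -0.51 over the tested members and 0.02 over all tested genes, and 38 of the 39 were negative, against 47.1% of all tested genes. In 33 of the 39 every siSHMT2 library lay below every siNC library, a pattern that 18.6% of all tested genes showed.

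The control libraries differed more among themselves than the siSHMT2 libraries. The median SD of a tested member on the log2 scale was 0.218 in siNC and 0.119 in siSHMT2 (0.191 and 0.105 over all tested genes). Of the 39 members, 26 were highest in siNC_2 among the controls and 22 were lowest in siNC_1; over all tested genes these shares were 38.3% and 38.7%. MX1, ISG15, IFITM3, BST2, IFI6 and IFI27 varied more than 2-fold between control libraries, as 8.87% of tested genes did, and all 6 were highest in siNC_2. Gene length moved with this: siNC_2 exceeded siNC_1 by a median of 0.91 on the log2 scale in the 9 members shorter than 2000 bases and by 0.09 in the other 30, and by 0.25 and -0.02 in all tested genes of those lengths. Of the 9 short members 1 fell, IFITM1, and of the 30 longer ones 18, while 9.85% of all tested genes of any length were called lower. The short and the longer members had median log2 fold changes of -0.49 and -0.53. With each library's trend on gene length removed, 17 of the 39 fell, against 9.34% of all tested genes. The part of gene length in the differences between members was not tested.

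**Figure D1:**
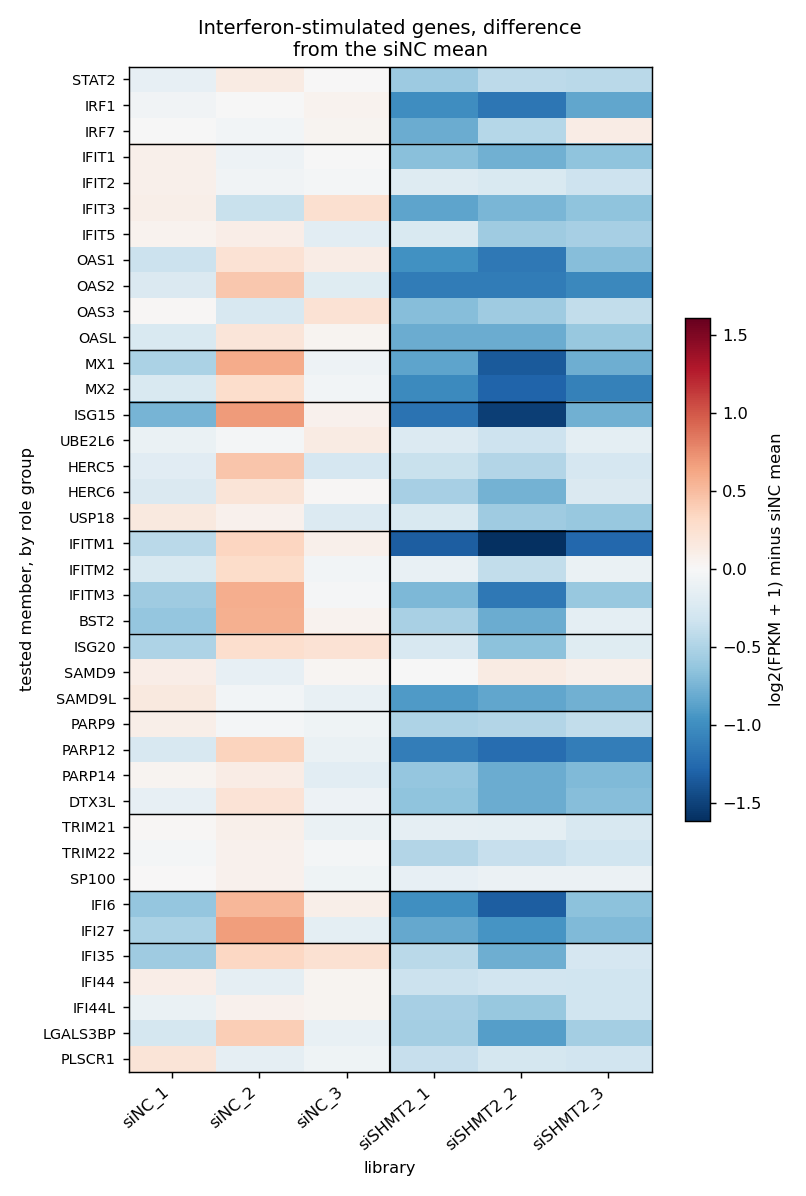
Heat map of the 39 tested members (rows, by role group) in the 6 libraries (columns); colour gives log2(FPKM + 1) minus the mean of the 3 siNC libraries. The siSHMT2 columns are mostly blue, and siNC_2 is the reddest control for ISG15, IFITM3, BST2, IFI6, MX1 and IFI27.

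Calls also depended on single libraries. IRF1, IFIT1, OAS2, MX2, IFITM1, SAMD9L, PARP12, PARP14 and DTX3L were called lower whichever library was left out. The number of members called lower was 25, 17 and 14 without siNC_1, siNC_2 and siNC_3, and 9, 11 and 11 without siSHMT2_1, siSHMT2_2 and siSHMT2_3. Without siNC_1, ISG15, IFI6, IFITM3, IFI27, IFI35, ISG20, HERC6 and LGALS3BP were added to the calls. Voom on recovered reads added ISG15, IFI6, IFITM3, IFI27, HERC6 and LGALS3BP and lost IFIT5, OAS3 and TRIM22. With FPKM from read sums, 17 members were called lower, against 7.06% of all tested genes. That scaling added ISG15, IFI6 and LGALS3BP and lost IFI44L, IFIT5, OAS3, PARP9 and TRIM22. With 31 members, weighting of libraries by limma array weights called the most. The weights were 0.305, 0.263 and 2.68 for siNC_1, siNC_2 and siNC_3. For siSHMT2_1, siSHMT2_2 and siSHMT2_3 they were 4.94, 0.881 and 1.07, so that fit rested mostly on siNC_3 and siSHMT2_1. Over all tested genes the share called lower moved as well, from 4.58% without siSHMT2_1 to 18.2% with array weights.

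**Figure D2:**
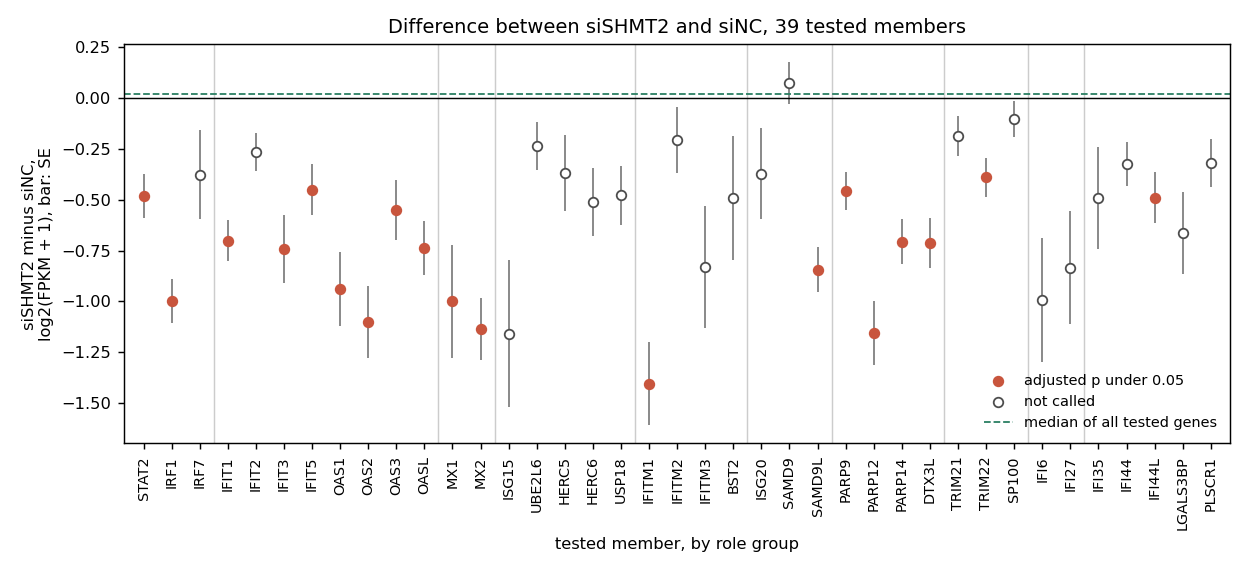
Log2 fold change (siSHMT2 minus siNC, log2(FPKM + 1) scale) of each tested member, with its SE; filled points have a limma adjusted p under 0.05 and the dashed line is the median of all tested genes, 0.02. IFITM1 is the lowest point at -1.40 and SAMD9 alone lies above 0.

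Among the signal transducers and transcription factors, IRF1 and STAT2 fell. IRF1, a transcription factor that responds to interferon-gamma and to NF-kB (chromosome 5, 132481609 to 132490777 in the table, matching GRCh38), stood at 9.57, 9.89 and 10.4 FPKM in the siNC libraries and 4.49, 3.90 and 5.12 in the siSHMT2 libraries. The control values were tight and the groups were well apart, and IRF1 fell by 0.999 on the log2 scale (SE 0.108, limma adjusted p = 0.00122). Without strand information its reads cannot be told apart from those of antisense models that cover 22.003% of its exonic bases. STAT2, the STAT protein that carries type I interferon signals, had 7.97, 9.80 and 8.87 FPKM in siNC and 5.54, 6.34 and 6.29 in siSHMT2. The groups did not overlap, and STAT2 fell by 0.48 (SE 0.107, adjusted p = 0.0210). It was not called on leaving out siNC_3 (0.0566), siSHMT2_1 (0.110), siSHMT2_2 (0.0643) or siSHMT2_3 (0.0696). IRF7, the factor that amplifies interferon-alpha production, rested on 19 to 72 reads. It had 1.51, 1.45 and 1.61 FPKM in siNC and 0.454, 0.831 and 1.74 in siSHMT2, so the groups overlapped (adjusted p = 0.297). IRF9, the DNA-binding subunit of the complex with STAT2, was listed at 0 to 0.0319 FPKM, from at most 2 reads. In GENCODE release 29, 48.4% of its exonic bases also belong to AL136295.5, a gene model on the same strand that runs through IRF9, so this level cannot be read as that of IRF9 RNA.

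The IFIT proteins, which bind viral RNA ends, and the oligoadenylate synthetases, which activate RNase L, were called in most cases. Of these 8 members 7 fell, against 9.85% of all tested genes. In all 8 every siSHMT2 library lay below every siNC library, as in 18.6% of all tested genes. IFIT1, which binds RNA lacking cap methylation, had 31.7, 28.1 and 29.6 FPKM in siNC and 18.2, 16.9 and 18.6 in siSHMT2. The control and siSHMT2 libraries each agreed closely, and IFIT1 fell by 0.70 (SE 0.0995, adjusted p = 0.00339). IFIT3, its partner in a complex, had 37.0, 26.8 and 41.6 FPKM against 18.7, 20.4 and 21.7 and fell by 0.74 (adjusted p = 0.0215). It was not called on leaving out siNC_3 (0.0595), siSHMT2_1 (0.0976), siSHMT2_2 (0.0738) or siSHMT2_3 (0.0600). IFIT5 fell by 0.45 (adjusted p = 0.0470), a call kept only without siNC_3 and lost on leaving out siNC_1 (0.0831), siNC_2 (0.0912), siSHMT2_1 (0.0583), siSHMT2_2 (0.165) or siSHMT2_3 (0.160). IFIT2 had means of 4.47 ± 0.285 and 3.55 ± 0.210 FPKM and a log2 fold change of -0.27 (adjusted p = 0.0971; SD, n = 3). All 4 IFIT genes lie together on chromosome 10 between 89283694 and 89420997.

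OAS2, a synthetase of the cluster on chromosome 12 (112906783 to 113011723), had 15.3, 24.6 and 15.6 FPKM in siNC and 7.70, 7.69 and 8.27 in siSHMT2. Its siSHMT2 values were nearly equal, 1 control stood well above the other two, and OAS2 fell by 1.10 (SE 0.177, adjusted p = 0.00585). OAS1 had 6.07, 9.56 and 8.80 FPKM against 3.59, 3.05 and 4.60 and fell by 0.94 (adjusted p = 0.0121), with the call lost on leaving out siSHMT2_1 (0.0537). OAS3, the form that responds to the longest double-stranded RNA, fell by 0.55 (adjusted p = 0.0410). It was not called on leaving out siNC_1 (0.0686), siNC_3 (0.101), siSHMT2_1 (0.162), siSHMT2_2 (0.126) or siSHMT2_3 (0.0707). OASL, a relative without synthetase activity that acts on RNA sensing, had 15.1, 20.8 and 18.6 FPKM against 9.91, 9.95 and 11.4 and fell by 0.74 (adjusted p = 0.00973). It was not called on leaving out siSHMT2_1 (0.0553).

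The dynamin-like GTPases MX1 and MX2, which trap viral nucleocapsids, are neighbours on chromosome 21 (41361999 to 41459214), and both fell. MX2 had 3.39, 5.34 and 4.05 FPKM in siNC and 1.55, 1.13 and 1.45 in siSHMT2 and fell by 1.13 (SE 0.153, adjusted p = 0.00284). MX1 had 10.8, 24.4 and 14.8 FPKM against 8.31, 5.57 and 8.70. Its controls were far apart, with the lowest close to the siSHMT2 range, and MX1 fell by 0.999 with a larger error (SE 0.277, adjusted p = 0.0472). MX1 was called without siNC_1 but not on leaving out siNC_2 (0.0669), siNC_3 (0.0976), siSHMT2_1 (0.105), siSHMT2_2 (0.149) or siSHMT2_3 (0.0852).

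ISG15 conjugation had 0 of 5 members called by limma on log2(FPKM + 1), whereas voom on recovered reads called ISG15 (adjusted p = 0.0207) and HERC6 (0.0484). ISG15 was also called with TPM (0.0377) and with FPKM from read sums (0.0483), and with array weights ISG15, HERC6 and UBE2L6 were called. At an unadjusted p under 0.05, ISG15, HERC6 and USP18 were lower and 0 were higher. ISG15, the ubiquitin-like modifier and the most abundant member, had 638, 1739 and 1127 FPKM in siNC and 472, 377 and 631 in siSHMT2. The lowest control lay just above the highest siSHMT2 library, and the log2 fold change of -1.16 had an SE of 0.362 (adjusted p = 0.0692). Without siNC_1 its adjusted p was 0.0109. UBE2L6, the conjugating enzyme, HERC5, the ligase, and HERC6, its relative, had log2 fold changes of -0.24, -0.37 and -0.51 (adjusted p = 0.227, 0.234 and 0.0759), and HERC6 was called on leaving out siNC_1 (0.0419). USP18, the protease that removes ISG15 and restrains the receptor, had means of 4.69 ± 0.770 and 3.08 ± 0.591 FPKM (SD, n = 3; log2 fold change -0.48, adjusted p = 0.0624, and 0.0458 without siNC_3). In all 5 genes the siSHMT2 libraries lay below the siNC libraries in FPKM, as in 18.6% of all tested genes. For HERC5 the margin was slight, with 5.45 FPKM in siNC_3 and 5.43 in siSHMT2_3, from 409 reads in each.

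**Figure D3:**
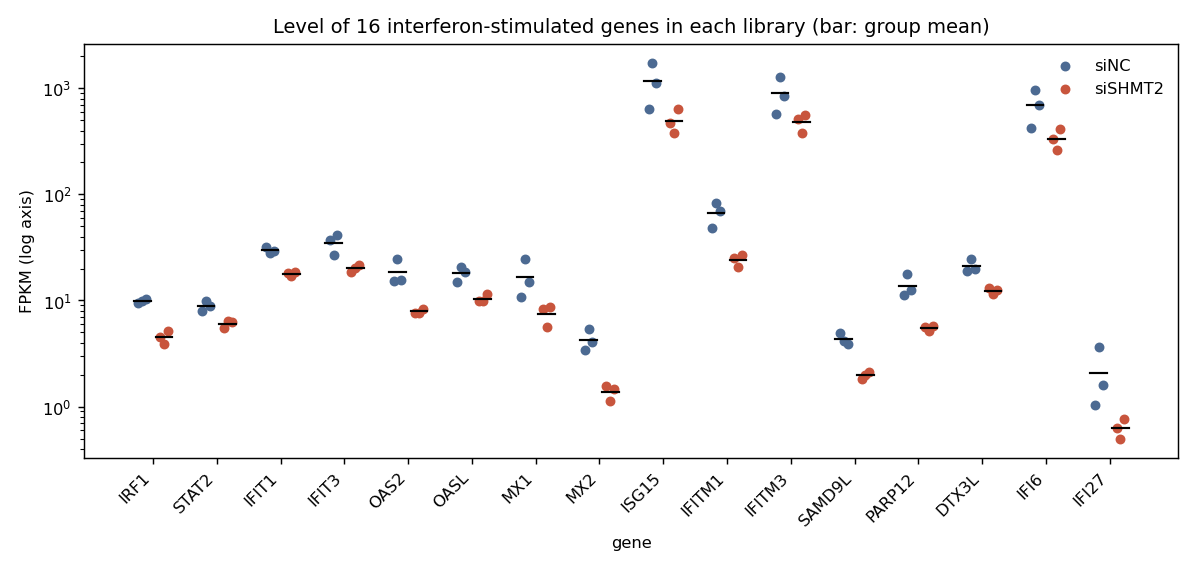
FPKM (log axis) of selected members in each library, siNC in blue and siSHMT2 in red, with the group mean as a bar. IRF1, IFIT1 and SAMD9L have tight, separate groups, while the siNC points of ISG15, IFITM3 and IFI6 spread over more than 2-fold.

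The membrane proteins that restrict virus entry and release differed within a family. IFITM1 (chromosome 11, 313506 to 315272) had 47.9, 83.3 and 69.1 FPKM in siNC and 25.3, 20.6 and 26.6 in siSHMT2. Every siSHMT2 value was well below the lowest control. IFITM1 fell by 1.40 (SE 0.205, adjusted p = 0.00386), further than any other member on the log2(FPKM + 1) scale. By voom on recovered reads, MX2 (-1.54) and IFI27 (-1.45) had larger log2 fold changes than IFITM1 (-1.36). IFITM2 had 35.9, 52.6 and 41.4 FPKM against 39.2, 32.3 and 39.8, with overlapping groups (log2 fold change -0.21, adjusted p = 0.438). IFITM3, the best known block to influenza entry, had 571, 1286 and 845 FPKM against 515, 382 and 558 (log2 fold change -0.83, adjusted p = 0.104, and 0.0214 without siNC_1). BST2, the tether of budding virions, had means of 252 ± 100.7 and 172 ± 39.2 FPKM (SD, n = 3) and overlapping groups (adjusted p = 0.328).

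Within a library, the ratio of 2 genes does not depend on the library total. IFITM1 over IFITM2 was 1.33, 1.58 and 1.67 in siNC and 0.644, 0.638 and 0.668 in siSHMT2. The order of the 2 genes was thus turned in every siSHMT2 library, with a difference of -1.23 in log2 ratio (SE 0.1001). IFITM1 over IFITM3 was 0.0838, 0.0648 and 0.0818 in siNC and 0.0490, 0.0540 and 0.0476 in siSHMT2 (difference -0.61, SE 0.130). In GENCODE release 29, 32.5% of the exonic bases of IFITM1 are shared with IFITM2 on the same strand, and the genes are close copies, so reads may have been dropped or split between them.

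SAMD9 and SAMD9L, neighbouring antiviral genes on chromosome 7 (93099513 to 93148385) that curb translation, also parted. SAMD9L had 4.96, 4.16 and 3.90 FPKM in siNC and 1.83, 1.97 and 2.10 in siSHMT2 and fell by 0.84 (SE 0.109, adjusted p = 0.00236). SAMD9 had 14.1, 11.9 and 13.4 FPKM against 12.99, 14.5 and 14.0 (log2 fold change 0.07, SE 0.104, adjusted p = 0.696). Among the 39 tested members SAMD9 alone had a positive log2 fold change. With array weights it was negative, and with no filter RSAD2 was positive as well. The ratio of SAMD9L to SAMD9 was 0.351, 0.351 and 0.291 in siNC and 0.141, 0.136 and 0.150 in siSHMT2, a difference of -1.21 in log2 ratio (SE 0.0998). These 3 ratios were chosen after the values were seen. Each had a two-sided exact permutation p = 0.1, the smallest that 3 libraries a group allow, and 0.1 after adjustment over the 3. Of the other effectors in this group, ISG20, an RNA exonuclease, had means of 4.14 ± 1.39 and 2.89 ± 0.655 FPKM (SD, n = 3; adjusted p = 0.313, and 0.0370 without siNC_1). RSAD2, which makes a chain-terminating nucleotide, had 0 to 13 reads in a library, and its neighbour CMPK2 had 0 in every library, which allows up to 3 reads in each by counting error alone.

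**Figure D4:**
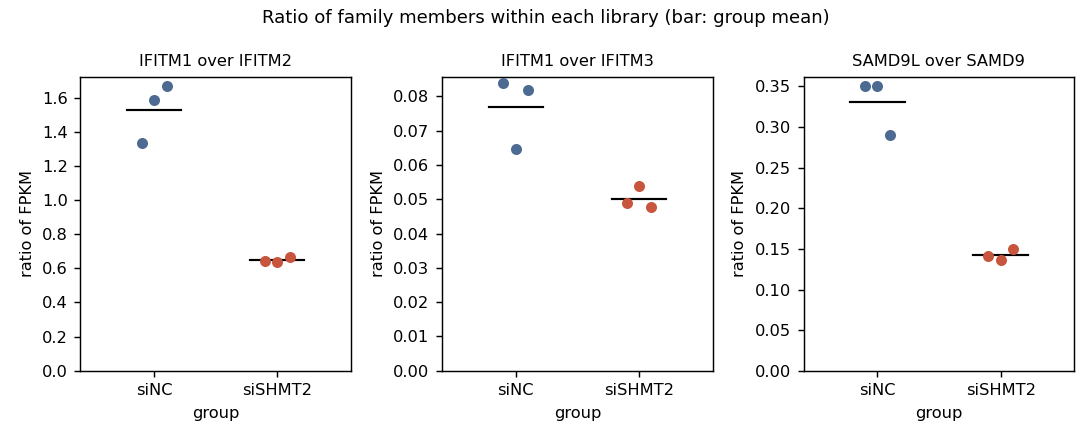
Ratio of FPKM between 2 genes within each library, for 3 pairs, with the group mean as a bar. In each pair the 3 siSHMT2 points lie below the 3 siNC points, and IFITM1 over IFITM2 goes from above 1 to below 1.

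The PARP proteins and DTX3L, which attach ADP-ribose or ubiquitin in antiviral signalling, were called lower in 4 of 4 cases, against 9.85% of all tested genes. PARP12, which moves to stress granules, had 11.2, 17.6 and 12.5 FPKM in siNC and 5.67, 5.18 and 5.71 in siSHMT2, and it fell by 1.15 (SE 0.158, adjusted p = 0.00298). PARP9, DTX3L and PARP14 lie within 122527924 to 122730840 on chromosome 3. DTX3L, the ligase that pairs with PARP9, had 18.98, 24.6 and 19.7 FPKM against 12.999, 11.6 and 12.6 and fell by 0.71 (SE 0.123, adjusted p = 0.00773). PARP9 had 6.197, 5.58 and 5.38 FPKM against 3.75, 3.82 and 4.08 and fell by 0.46 (SE 0.0933, adjusted p = 0.0154), but it was not called on leaving out siSHMT2_1 (0.0864), siSHMT2_2 (0.0687) or siSHMT2_3 (0.0542). PARP14 had 10.2, 10.9 and 8.68 FPKM against 6.08, 5.27 and 5.65 and fell by 0.71 (SE 0.110, adjusted p = 0.00508). The head-to-head pair PARP9 and DTX3L thus both lay lower in every siSHMT2 library.

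Members of the remaining groups changed less or varied more. Of the TRIM and nuclear body proteins, TRIM22 fell by 0.39 (adjusted p = 0.0311), a call lost on leaving out siNC_3 (0.0615), siSHMT2_1 (0.148), siSHMT2_2 (0.102) or siSHMT2_3 (0.0870). TRIM21, the cytosolic antibody receptor, and SP100, a nuclear body component, were at 18.2 ± 1.30 against 15.9 ± 0.743 FPKM and 11.2 ± 0.558 against 10.3 ± 0.161 (SD, n = 3; adjusted p = 0.252 and 0.474). IFI6, a mitochondrial protein, had 426, 954 and 701 FPKM in siNC and 330.3, 262 and 416 in siSHMT2 (log2 fold change -0.99, adjusted p = 0.0655, and 0.0109 without siNC_1). IFI27 had 1.03, 3.61 and 1.59 FPKM against 0.632, 0.494 and 0.763 (log2 fold change -0.83, adjusted p = 0.0815, and 0.0249 without siNC_1). XAF1, an apoptosis factor, lay below the filter at 0.0768 to 0.303 FPKM.

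IFI44L fell by 0.49 (adjusted p = 0.0361), a call lost on leaving out siNC_2 (0.0667), siNC_3 (0.0913), siSHMT2_1 (0.137), siSHMT2_2 (0.132) or siSHMT2_3 (0.0574). Its neighbour IFI44 had means of 30.4 ± 2.84 and 24.0 ± 0.384 FPKM (SD, n = 3; adjusted p = 0.0783, and 0.0252 without siNC_2). LGALS3BP, a secreted galectin ligand, had 168, 269 and 188 FPKM against 139, 109 and 139 (log2 fold change -0.66, adjusted p = 0.0616, and 0.0303 without siNC_1). PLSCR1, a phospholipid scramblase, and IFI35 had log2 fold changes of -0.32 and -0.49 (adjusted p = 0.106 and 0.238), and IFI35 was called on leaving out siNC_1 (0.0193).

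By level, ISG15 (1168 ± 552 FPKM), IFITM3 (901 ± 361), IFI6 (694 ± 264), BST2 (252 ± 100.7) and LGALS3BP (208 ± 53.5) led in siNC (SD, n = 3). The spreads of these neighbours overlapped, apart from IFI6 and BST2. The 43 members together summed to 2504, 5271 and 3733 FPKM in the siNC libraries and 2028, 1643 and 2389 in the siSHMT2 libraries. ISG15, IFITM3 and IFI6 made up 62.2% to 75.5% of that sum. None of the 3 passed limma on log2(FPKM + 1) with all 6 libraries, while voom called all 3.

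Upstream of the members, JAK1 had 12.4, 11.97 and 10.8 FPKM in siNC and 7.21, 6.97 and 6.51 in siSHMT2 and fell by 0.69 (SE 0.0960, adjusted p = 0.00319), whichever library was left out. The other kinase, TYK2, had means of 17.5 ± 1.51 and 17.3 ± 0.273 FPKM (SD, n = 3; adjusted p = 0.937), the receptor chain IFNAR1 9.04 ± 1.01 and 8.70 ± 0.574 (adjusted p = 0.812) and STAT3 7.68 ± 1.04 and 8.25 ± 0.453 (adjusted p = 0.604). IFNAR2 was listed at 0.248 to 0.509 FPKM, and 83.2% of its exonic bases belong to other gene models as well.

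Interferon RNAs themselves were near the detection limit in both groups. Of 21 interferon genes, 13 had 0 reads in every library and 20 lay below the filter, with at most 6 reads in a library. IFNB1 was at 0.273, 0 and 0.454 FPKM in siNC and 0, 0.431 and 0.302 in siSHMT2. IFNE passed the filter and was not called (adjusted p = 0.455). Differences in these genes were not detectable at this depth.

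Among 7 tested negative regulators, SOCS1, the JAK inhibitor that is itself induced by interferon, fell. It had 19.8, 22.9 and 22.3 FPKM in siNC and 9.62, 9.34 and 11.6 in siSHMT2 and fell by 1.02 (SE 0.115, adjusted p = 0.00144), whichever library was left out. Of 12 tested genes of RNA and DNA sensing, 2 fell and 1 rose, with a median of -0.11. Over all tested genes 9.85% were called lower and 6.07% higher. Lists of 7 and 12 genes are too short to set such counts apart from these shares. DDX58, the RNA helicase RIG-I, had 12.7, 17.7 and 12.9 FPKM against 7.03, 7.58 and 8.27 and fell by 0.83 (adjusted p = 0.00732), whichever library was left out. EIF2AK2, the kinase PKR, fell by 0.39 (adjusted p = 0.0439), a call lost on leaving out siNC_1 (0.0706), siNC_2 (0.0666), siSHMT2_1 (0.136), siSHMT2_2 (0.146) or siSHMT2_3 (0.139). TRAF3, an adaptor of these sensors, rose by 0.61 (adjusted p = 0.00843), with 4.61, 4.61 and 3.83 FPKM against 6.70, 7.81 and 6.91. IFIH1, the RNA helicase MDA5, was at 1.74 ± 0.292 and 1.17 ± 0.124 FPKM (SD, n = 3; adjusted p = 0.119).

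Of 26 tested interferon-stimulated genes on a second list, 11 fell, against 9.85% of all tested genes, and 15 were not called. The median was -0.32 and 21 were negative, while TRIM5, TDRD7, CMTR1, HELZ2 and TRIM38 had positive log2 fold changes of at most 0.29. Of the 11, BATF2 alone was called whichever library was left out. BATF2, NMI, PML and RTP4 had the smallest adjusted p and fell by 0.84, 0.66, 0.72 and 0.71 (adjusted p = 0.00357, 0.00958, 0.0111 and 0.0175). RTP4 rested on 9 to 42 reads in a library and passed the filter only through its siNC level, with a mean of 1.58 FPKM against 0.591 in siSHMT2. NMI was not called on leaving out siSHMT2_1 (0.0547), PML on leaving out siSHMT2_1 (0.0522) or siSHMT2_2 (0.0520), or RTP4 on leaving out siSHMT2_2 (0.0687) or siSHMT2_3 (0.0709). Of 8 tested genes linked to interferon-gamma, 5 fell, against 9.85% of all tested genes, and the median of the 8 was -0.55. GBP2 of this list had every siSHMT2 library above every siNC library, with a log2 fold change of 0.35 that did not pass the test (adjusted p = 0.0967). GBP1, a guanylate-binding GTPase, had 16.9, 10.6 and 12.8 FPKM in siNC and 4.73, 4.86 and 4.71 in siSHMT2 and fell by 1.30 (SE 0.156, adjusted p = 0.00178). APOL6, APOL3 and APOL1 fell by 0.73, 0.64 and 0.69 (adjusted p = 0.00284, 0.0120 and 0.0195), and GBP3 fell by 0.46 (adjusted p = 0.0294). The call of GBP3 was lost on leaving out siNC_1 (0.0534), siSHMT2_1 (0.125), siSHMT2_2 (0.0584) or siSHMT2_3 (0.126). APOL3 was not called on leaving out siSHMT2_1 (0.0564) or siSHMT2_2 (0.0543), or APOL1 on leaving out siNC_3 (0.0569), siSHMT2_1 (0.0847) or siSHMT2_2 (0.0825).

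Transcripts lowered in these siSHMT2 libraries often hold GACTTTA or ACTTTAA, 2 short words, in the 3′ UTR. These words were picked earlier on the same fold changes, so their shares are a description. In the longest 3′ UTR annotated by GENCODE release 29, either word was present in 6 of 39 tested members (15.4%), in 25.6% of 9413 tested protein-coding genes and in 58.1% of 964 such genes called lower. The 33 members with neither word were all negative, with a median of -0.66 and 15 called lower; all 7007 tested protein-coding genes with neither word had a median of 0.06, and 404 were called lower. The 6 members with a word were OAS2, SAMD9, IFIT2, IFIT5, PARP9 and IFI44L, with a median of -0.46 and 4 called lower. Outside the members, JAK1 held GACTTTA, GBP1 and APOL6 held both words, and IFNAR1, TYK2, SOCS1 and DDX58 held neither. The windows around the word are shown for JAK1 and for a pair of members, 1 called lower and 1 not called, in the sense of the transcript, with the word in capitals; that of JAK1 ends with the transcript.
JAK1 (chr1:64833229-64833245, minus strand): atatactaaaGACTTTA
OAS2 (chr12:113010089-113010115, plus strand): agtgtcttgaGACTTTAtcatgtgtct
SAMD9 (chr7:93100025-93100051, minus strand): gcaacatataGACTTTAgatcctaatt

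The siRNA sequences are not given in the sources used here, and the part of these words in the level of JAK1 or any member was not tested.

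**Figure D5:**
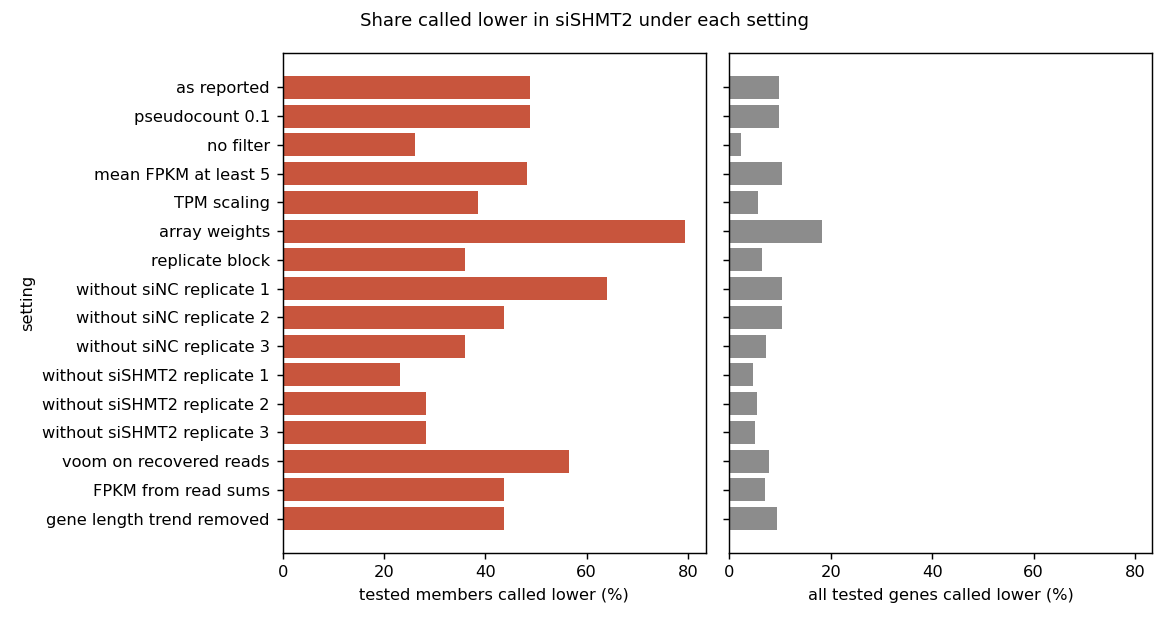
Share of tested members (left) and of all tested genes (right) called lower in siSHMT2 under each setting, both axes from 0. The share of members ranges from 23.1% without siSHMT2_1 to 79.5% with array weights, and it exceeds the share of all tested genes in each setting shown.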

How the data were processed

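RNA was measured in 3 siNC and 3 siSHMT2 libraries of LX2 cells. The authors deposited 1 table of FPKM values with gene lengths and coordinates. HISAT2 2.0.5, featureCounts 1.5.0-p3 and hg18 are named, per the submitters' processing notes; the coordinates match GRCh38 instead, since 79.6% of 58516 genes shared with GENCODE release 29 had identical start and end and all 43 members overlapped their GENCODE gene. Whether counting used strand is not stated by any label or header. FPKM times gene length gave whole reads for 100% of non-zero values, at a tolerance of 0.02 reads.

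The test was limma 3.58.1 (R 4.3.3), two-sided, on log2(FPKM + 1) with an intensity trend, for genes whose mean FPKM reached 1, with Benjamini-Hochberg adjustment over 10865 genes at 0.05. Fold changes keep that scale, so changes of low genes come out too small. The fit was tested on simulated data. The labels do not say whether replicates were separate cultures; if not, the p-values reflect technical spread alone.

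The members, lists and naming rule were chosen with earlier results of these data known. The rule named every member, with values per library for up to 4 of each role group, the main pathway genes, and up to 4 of each pathway list. Symbols were matched to gene_name in the table. Promoters are from RefSeq (GRCh38.p14), 3′ UTRs and exon overlaps from GENCODE release 29, with a minimum 3′ UTR of 50 bases. Alternatives covered pseudocount, filter, scaling, array weights, a replicate block, voom on recovered reads and leaving out each library; removal of the trend on gene length (loess, span 0.5) was chosen after seeing the data.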

Additional observations from a re-analysis of the deposited data

How the results depend on the processing

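The 39 tested members gave 0 reversed signs among called values and 0 calls of a higher level in 15 alternatives. Of their values, 468 kept their side of the threshold, 70 lost a call and 37 gained one. The number called lower (19) was 11 with no filter and 31 with array weights, and 9 to 25 when a library was left out. With TPM 15 were called, 12 of them shared with the reported 19, and the median of all genes moved to 0.11 (0.10 with voom, 22 called) while that of the members was -0.51. The member median (-0.51) was -0.67 at a pseudocount of 0.1, -0.66 at a mean FPKM of at least 5, and -0.66 to -0.47 when a library was left out. Over all genes, 1070 were lower and 659 higher; the numbers were 603 and 333 with no filter, 618 lower at a mean FPKM of at least 5, 620 and 686 with TPM, 767 and 796 with FPKM from read sums, 853 and 914 with voom, 1976 and 1827 with array weights, and 498 to 1132 and 229 to 729 when a library was left out. With the replicate block 696 were lower and 374 higher, and 14 members were called lower. The labels do not say whether replicate numbers pair the libraries. Deviations from the group mean correlated at -0.02, -0.35 and 0.24 for same-numbered libraries over 10865 genes. For differently numbered libraries they correlated at -0.48 to 0.50. With 3 libraries a group these deviations sum to 0, so the correlations cannot decide whether libraries are paired. The 3 ratios kept their sign in each alternative run. Members with under 100 reads, such as IRF7, are limited by depth.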
